A study of Rattus norvegicus with 9 samples.

Results

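Mst1r and Met are the 2 members of the MET family of receptor tyrosine kinases, and Mst1 and Hgf encode their ligands. These 4 genes were taken by exact name from the deposited tables of 32883 genes, and all 4 were found, had reads in every library and passed the filter on low values. Mst1 is here macrophage stimulating 1, a secreted protein, and not the kinase Stk4 that is also called MST1. RefSeq, in the rat assembly GRCr8, lists Ron as a synonym of Mst1r and Hgfr as a synonym of Met.

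The data are RNA-seq values of male Wistar rats labelled WT, sampled at day 31. According to the paper the tissue is retroperitoneal fat. BB rats were fed a high fat diet, received a single injection of streptozotocin (25 mg/kg), a toxin of the insulin-producing beta cells, and were then given black bean extract by gavage (260 mg/kg/day). DB rats had the same diet and injection with water in place of the extract, and HE rats had standard diet and citrate buffer. Diet and streptozotocin therefore differ together between DB and HE and cannot be told apart. There were 3 libraries per group (BB replicates 1, 4 and 8, DB replicates 1, 2 and 6, HE replicates 2, 3 and 4). The labels number the animals without saying more about how libraries were made from them, so the tests weigh differences only against the variation among libraries, part of which may be technical.

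The ligands of both receptors are unusual growth factors, built like plasminogen with kringle domains and a protease domain that has lost its activity. Each is secreted as an inactive single chain and must be cut by a serine protease before it can signal. Hgf is made mainly by stromal cells and acts on epithelial cells, hepatocytes and endothelium, whereas Mst1 is made mainly by hepatocytes and reaches tissues through the blood. Met is best known for driving growth, motility and branching of epithelia. Mst1r is expressed by epithelial cells and by some resident macrophages, where in mice it restrains inflammatory activation.

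The values are reads divided by 1 size factor per library, so they compare libraries for a gene and are not corrected for gene length. Depth was 2771967 to 3542749 reads in 8 of the libraries and 12267084 reads in BB replicate 8. That library stands apart. It had no reads for 47.4% of the genes, against 1.92 to 2.72% in the others, which had reads for nearly all genes at a lower depth. Its 10 most abundant genes took 76.5% of its reads (10.2 to 19.2% in the others). Its correlation with the other libraries was 0.577 to 0.594, against 0.961 to 0.969 among those. It is therefore given apart below. The fold changes of the 4 genes in comparisons with BB are given with and without it, and those of other genes without it. The data columns carry an ending that differs from that of the sample titles, so their tissue rests on the labels and the paper. Of the adipocyte markers, 8 of 9 were measured, and their summed value was 632 to 637 in the 2 other BB libraries, 591 to 709 in DB and 613 to 713 in HE, with none at 0. Single markers ran from Fabp4, at 8.10 to 14.6 in these 8 libraries, to Lep, at 156 to 233. The hepatocyte marker Alb (251 to 738) and the macrophage marker Cd68 (593 to 913) were above each of them. The adipocyte markers therefore do not by themselves identify the tissue as fat. In BB replicate 8 the adipocyte markers summed to 307 on the deposited scale. Of the 8, 4 were at 0 there (Adipoq, Cidec, Fabp4 and Lipe), and Plin1 and Lep were lower than in the other libraries. Pparg (131.7, against 35.8 to 52.4) and Lpl (102.4, against 54.6 to 88.8) were higher there on that scale. In reads scaled to the total of the library (RPM), the sum was 1.71 there, against 234 to 273 in the other libraries.

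Mst1r, the receptor of Mst1, had a wide spread between libraries. Its value was 2630.2 and 1583 in BB replicates 1 and 4. In DB it was 2170.3, 1338 and 1827, and in HE 1912, 2267 and 2184. The highest and the lowest of the 8 values differed 1.97-fold, and the ranges of all groups overlapped. The BB libraries lay on either side of every HE library, and the lowest DB library was below all others. The mean was 1779 ± 418 in DB and 2121 ± 186 in HE (SD, n = 3 each).

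The spread of Mst1r was larger than counting alone gives. Between 1653 and 3378 reads stood behind each value, which is a counting error of 1.72 to 2.46%, while the coefficient of variation was 23.5% in DB and 8.76% in HE. These counting errors, and the counting intervals below, do not cover preparation or animal differences. The residual SD of Mst1r within groups was 0.33 on the log2 scale, against a median of 0.15 for the 75 genes within 2-fold of its level, and stood at percentile 84.0 of these.

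**Figure D1:**
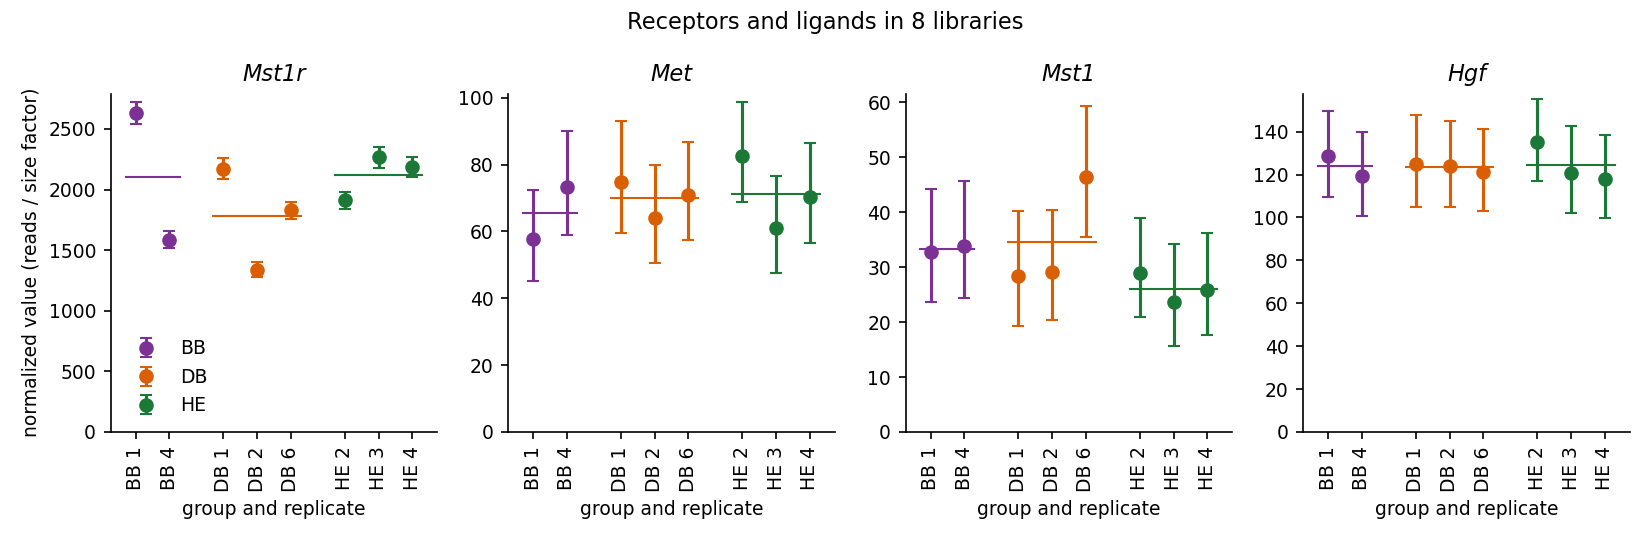
Value (reads divided by the size factor of the library) of Mst1r, Met, Mst1 and Hgf in the 8 libraries other than BB replicate 8, by group, with 95% counting intervals as error bars. The groups overlap for every gene except Mst1 between BB and HE, and Hgf is nearly level, from 118 to 135.

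Met, the receptor of Hgf, had values of 57.6 and 73.3 in BB, 74.9, 64.0 and 71.0 in DB, and 82.6, 60.9 and 70.2 in HE. The HE libraries alone spanned nearly the whole range of the 8, which was 1.43-fold from lowest to highest. The means were 69.9 ± 5.53 in DB and 71.2 ± 10.9 in HE (SD, n = 3 each). Only 72 to 123 reads stood behind each value, a counting error of 9.02 to 11.8%, so counting was about as large as the variation seen between libraries (coefficient of variation 7.91% in DB and 15.3% in HE).

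Mst1, the ligand of Mst1r, had the fewest reads, 28 to 62 per library. Its value was 32.7 and 33.8 in BB, 28.3, 29.1 and 46.3 in DB, and 28.9, 23.7 and 25.8 in HE. Both BB libraries were above all HE libraries, and DB replicate 6 was the highest of the 8 while the other DB libraries lay within or close to the HE range. The mean was 34.6 ± 10.2 in DB and 26.1 ± 2.62 in HE (SD, n = 3 each). The counting error was 12.7 to 18.9% per library. The 95% counting intervals of BB (23.6 to 44.2 and 24.4 to 45.7) overlapped those of HE (20.9 to 38.9, 15.7 to 34.2 and 17.7 to 36.2).

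Hgf, the ligand of Met, was the steadiest of the 4. Its value was 128 and 119 in BB, 125, 124 and 121 in DB, and 135, 121 and 118 in HE, a range of 1.15-fold. The DB mean was 123 ± 2.05 and the HE mean 125 ± 9.15 (SD, n = 3 each). Its residual SD of 0.075 on the log2 scale stood at percentile 5.93 of the 8682 genes within 2-fold of its level. The coefficient of variation in DB, 1.67%, was below the mean counting error there of 8.16%.

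The first comparison, DB with HE, asks what diet and streptozotocin changed. None of the 4 genes passed the test (limma on log2(value + 1), adjusted over all 32371 genes tested), and none had groups that did not overlap. Over all genes 0.677% were called and 14.1% had groups without overlap. For Mst1r the log2 fold change was -0.28 (SE 0.20, 95% interval -0.69 to 0.13, adjusted p = 0.728), and for Mst1 it was 0.36 (SE 0.21, interval -0.073 to 0.80, adjusted p = 0.636). Those of Met and Hgf were -0.018 (SE 0.15, interval -0.33 to 0.29) and -0.012 (SE 0.11, interval -0.25 to 0.23), both with an adjusted p of 0.989. These sizes depended on single libraries, as Mst1r was at -0.087 without DB replicate 2 and -0.44 without DB replicate 1, and Mst1 at 0.14 without DB replicate 6.

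The second comparison, BB with DB, asks what the extract changed in diabetic rats. Without BB replicate 8 none of the 4 genes passed, but no gene of the 32371 did (0% called by limma, with 1603 at an unadjusted p under 0.05, 1 called by edgeR and 2 by DESeq2), so this count says nothing about the members. None of the 4 had groups without overlap, against 19.6% of all genes. For Mst1r the log2 fold change was 0.23 (SE 0.22, interval -0.23 to 0.68, adjusted p = 0.998). Its sign rested on 1 library, since it was -0.14 without BB replicate 1 and 0.59 without BB replicate 4. Met was at -0.10 (SE 0.17, interval -0.45 to 0.25), Mst1 at -0.019 (SE 0.23, interval -0.51 to 0.47) and Hgf at 0.0047 (SE 0.13, interval -0.26 to 0.27).

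The third comparison, BB with HE, sets treated diabetic against healthy rats. None of the 4 genes was called, against 0.192% of all genes. Mst1 had groups without overlap, as did 22.1% of all genes, and its log2 fold change was 0.34 (SE 0.23, interval -0.14 to 0.83, adjusted p = 0.848). Mst1r was at -0.052 (SE 0.22, interval -0.51 to 0.41, adjusted p = 0.985), Met at -0.12 (SE 0.17, interval -0.47 to 0.23) and Hgf at -0.0073 (SE 0.13, interval -0.27 to 0.26). The DB and HE samples are shared between these comparisons, so their fold changes are not independent.

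With BB replicate 8 included (9 libraries, deposited scale), the log2 fold change of Mst1r was 1.57 for BB with DB (SE 1.19) and 1.29 for BB with HE (SE 1.19). Hgf was at -0.68 and -0.69 (SE 0.52 each) in these comparisons, Mst1 at 0.35 and 0.71 (SE 0.40 each) and Met at -0.29 and -0.30 (SE 0.27 each). With total-count scaling of the 9 libraries the values for BB with DB were instead -0.42 for Mst1r, -2.07 for Hgf, -1.31 for Mst1 and -1.81 for Met. The median over all genes was -0.51 on the deposited scale in both comparisons and -1.38 for BB with DB with total-count scaling. No member passed the test in any of the 9-library fits, but almost no gene did. Limma on either scale and edgeR called 0 of all genes. DESeq2 called 24 for DB with HE (0.0769% of all genes), 0 for BB with DB and 15 for BB with HE (0.0481%). This count therefore says nothing about the members.

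**Figure D2:**
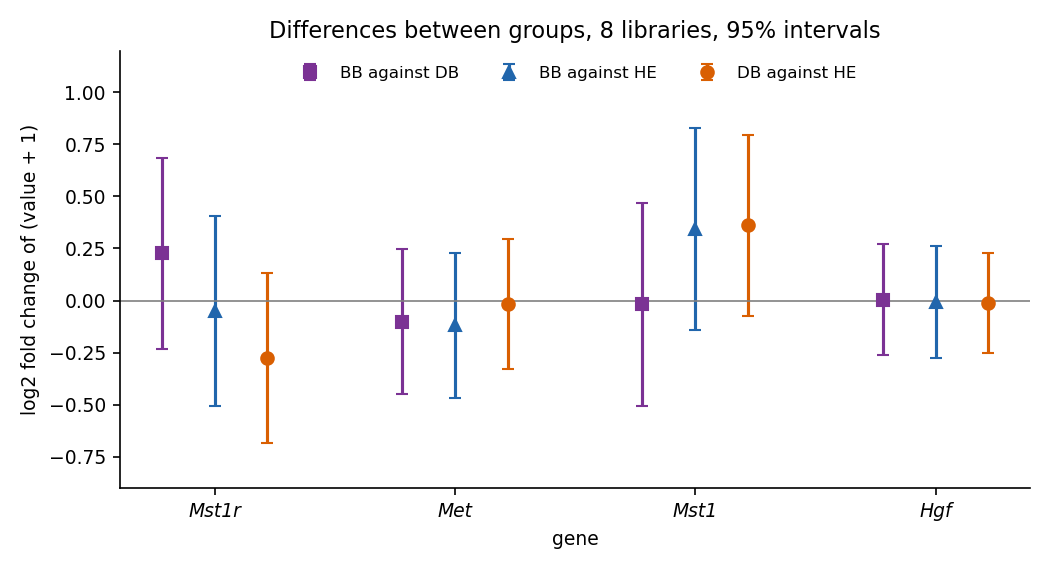
Log2 fold change of the 4 genes in each comparison, with 95% intervals from limma (8 libraries). Every interval includes 0, and the widest are those of Mst1 and Mst1r for BB with DB and with HE.

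Apart from the 1 added to each value, ratios within a library do not depend on its size factor, and show whether receptor and ligand moved apart. The log2 ratio of Mst1r to Mst1 was 6.29 and 5.51 in BB, 6.21, 5.47 and 5.27 in DB, and 6.0001, 6.52 and 6.35 in HE. DB was lower by 0.64 log2 units than HE on average (5.65 ± 0.49 and 6.29 ± 0.27, SD, n = 3 each), but the groups overlapped (two-sided exact permutation test, p = 0.2). The ratio of Met to Hgf was -0.81 ± 0.11 in DB and -0.81 ± 0.15 in HE (exact permutation p = 1). The ratio of Mst1r to Met differed by -0.26 between DB and HE (exact permutation p = 0.4), and by -0.13 without DB replicate 2, -0.10 without HE replicate 3 and -0.44 without HE replicate 2. None of the 9 ratio tests passed adjustment (adjusted p of 0.9 to 1), and the smallest p the design allows is 0.1.

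BB replicate 8 held many reads of Mst1r and few of the other members. Mst1r had 2288 reads there, Met 3, Mst1 5 and Hgf 2, and the values were 33482 for Mst1r, 43.9 for Met, 73.2 for Mst1 and 29.3 for Hgf. The size factor of BB replicate 8 was 0.0683, against 1.10 to 1.49 in the 8 other libraries. A value of 14.6 thus stood for 1 read there, against 0.672 to 0.913 in the others. On this deposited scale Mst1r was 18.8-fold the mean of DB, although its reads in DB were 2377, 1653 and 2445. The 95% counting interval, 18.1 to 19.6, covers only the reads of BB replicate 8, not the spread of DB or the scaling. Hgf was at 0.237-fold (0.0287 to 0.857), while the intervals of Met (0.129 to 1.83) and Mst1 (0.687 to 4.94) include 1. In RPM (reads scaled to the total of the library) Mst1r was instead lower there, 187 against a DB mean of 699, a ratio of 0.267 (0.256 to 0.278). Its direction against DB therefore depends on the scaling. The other 3 were lower on that scale by far more, with ratios of 0.0089 for Met, 0.0300 for Mst1 and 0.0034 for Hgf. Most genes whose mean reached 100 were lower there in RPM too (medians below).

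Many genes had a high value in this library on the deposited scale. Of 93 genes whose mean in the other 8 libraries reached 1000, 40 (43.0%) were above their own mean in BB replicate 8, and 29 (31.2%) reached at least the 16.8-fold of Mst1r. Of 5558 genes whose mean reached 100, 1869 (33.6%) were above their mean and 545 (9.81%) reached that fold, while 479 were at 0. In RPM, 21 of the 93 (22.6%) and 278 of the 5558 (5.00%) were above their mean, and Mst1r was at 0.232-fold of its own. Of the genes next to Mst1r in GRCr8, Mon1a and Actl11 had no reads in BB replicate 8, and Camkv was at 18263, against 159 to 241 in the 8 others (102 RPM, against 66.6 to 93.0). In the same library, on the deposited scale, the epithelial markers summed to 4317, against 248 to 307 in the 8 others, nearly all of it Cdh1, which encodes the cell adhesion protein E-cadherin (4083), with 2 of 7 epithelial markers at 0. In RPM their sum was lower there, 24.0 against 97.5 to 127, as was Cdh1, 22.7 against 32.1 to 41.7. The macrophage markers summed to 556, against 1464 to 1890, with 2 of 7 at 0, and in RPM to 3.10, against 585 to 757. Most of the 556 was Csf1r, which was higher there on the deposited scale (410, against 155 to 203). The rest of these markers were each lower there than in the 8 others, Cd68 for example at 14.6, against 593 to 913. Whether these have a part in the Mst1r value was not tested.

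**Figure D3:**
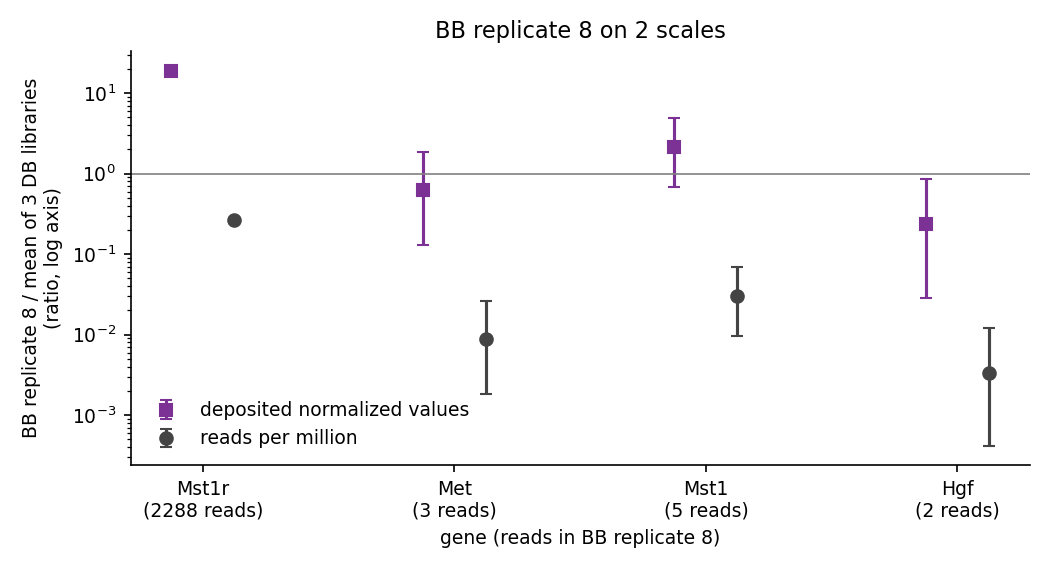
Ratio of BB replicate 8 to the mean of DB for the 4 genes, with 95% counting intervals, on a log axis, on the deposited scale and in RPM. Mst1r is above 1 on the deposited scale (18.8) and below 1 in RPM (0.267).

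The genes whose pattern over the 8 libraries was most like that of Mst1r were looked for among 11993 genes whose mean reached 50. They were Trpv2, a calcium-permeable channel of macrophages and other cells (Pearson r = 0.992), Cyb5r1, a cytochrome b5 reductase (0.990), Slco2a1, a prostaglandin transporter (0.984), LOC100362814 (0.982) and AC117925.1 (0.980). These r are a description over n = 8 libraries and were picked as the highest of many. All genes of a library share its depth and preparation. Mst1r was 30.3 to 32.6% of Trpv2 in the 8 libraries. BB replicate 8, which was not used to choose them, gave 33.2%. Its shares of the others lay outside their ranges in the 8 libraries, at 8.63% of Cyb5r1 (9.44 to 10.5%), 15.4% of Slco2a1 (16.9 to 19.7%), 12.3% of LOC100362814 (13.5 to 15.8%) and 4974% of AC117925.1 (597 to 675%). That of Trpv2 lay just above its range too. On the deposited scale their values there were 16.0-fold (Trpv2), 19.7-fold (Cyb5r1), 20.4-fold (Slco2a1) and 20.4-fold (LOC100362814) of their own means, beside 16.8-fold for Mst1r. AC117925.1 was at 2.13-fold with 46 reads. In RPM all 6 were below their means, the first 5 at 0.221-fold to 0.280-fold and AC117925.1 at 0.029-fold.

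**Figure D4:**
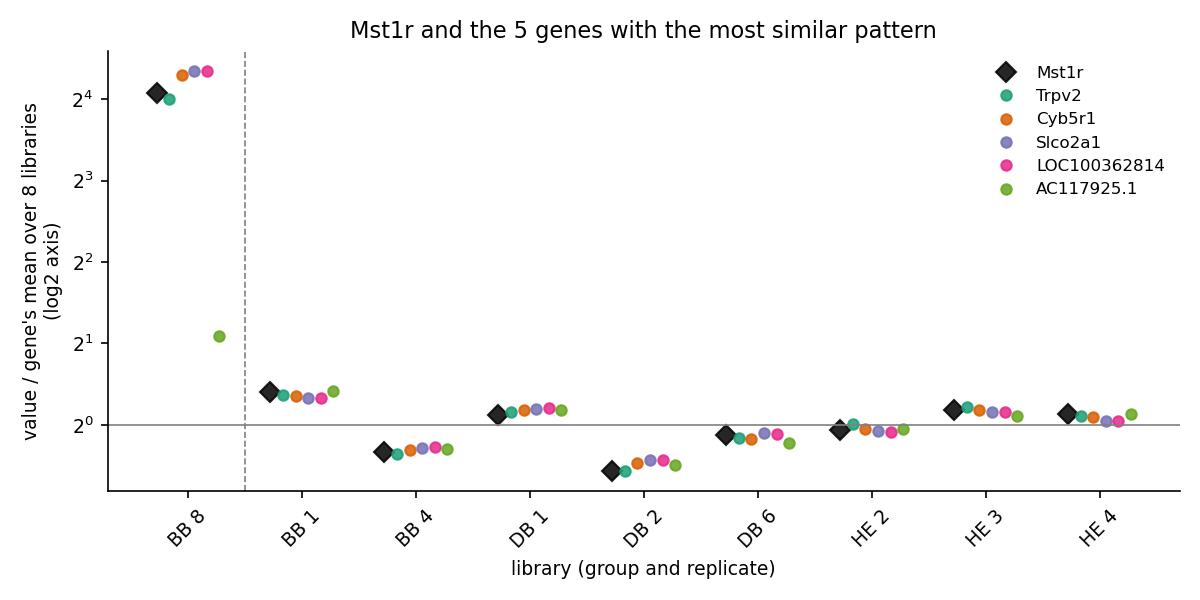
Value of Mst1r and of the 5 genes most like it, each divided by its own mean over the 8 libraries, on a log2 axis, with BB replicate 8 apart on the left. In BB replicate 8 the points sit at 16.0-fold to 20.4-fold, except AC117925.1 at 2.13-fold.

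The other members had neighbours in pattern of lower r. For Met they were Kcnj5 (0.947), Kmt5b (0.940), Mitf (0.935), Baiap2 (0.929) and AABR07062390.1 (0.920). For Mst1 they were RGD1563354 (0.929), LOC103692976 (0.925), Cpt2 (0.921), Vps36 (0.919) and Ccnt1 (0.918). For Hgf they were Rab8b (0.949), Fut9 (0.904), Ivns1abp (0.903), Mov10l1 (0.899) and Reep5 (0.899). Among the 4 members themselves r ran from -0.29 to 0.24 in the 6 pairs.

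Of the genes that carry the signal to and from these receptors, 82 of 83 were measured. None was called by limma, against 0.677% of all genes for DB with HE, 0% for BB with DB and 0.192% for BB with HE. With edgeR 0 were called, against 0.746%, 0.0037% and 0.246% of all genes in the same order. Shares this low leave little to expect in a list of 82. With BB replicate 8 included limma called 0 of all genes, so the 0 there says nothing about the list. At an unadjusted p under 0.05 there were 9 of the 82 (10.98%) for DB with HE, 4 (4.88%) for BB with DB and 1 (1.22%) for BB with HE, against 9.43%, 4.95% and 6.86% of all genes. Their median log2 fold changes were 0.017, -0.021 and 0.020, in the same order.

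Among the 13 proteases that activate the ligands, Tmprss13, a membrane serine protease, had values of 144 and 163 in BB, 134, 131 and 131 in DB, and 167, 174 and 172 in HE. Its DB and HE libraries did not overlap, as was so for 14.1% of all genes, and the log2 fold change was -0.37 (SE 0.11, adjusted p = 0.159). F11, coagulation factor XI, was at 0.32 for DB with HE (SE 0.14, adjusted p = 0.484). In the same comparison St14, which encodes matriptase, was at 0.15 and Hgfac, the activator of Hgf, also at 0.15.

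Of the 6 inhibitors of these proteases, Serpinc1, which encodes antithrombin, was at -0.25 for DB with HE (SE 0.11, adjusted p = 0.483). In that comparison Spint1, which encodes the inhibitor of the Hgf activator, was at 0.19 and Serpina5 at 0.055. Plg, plasminogen, the family relative of the ligands, was at -0.13.

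Of the 14 coreceptors and partners, Itgb4, an integrin that pairs with Met and Mst1r in epithelial cells, had values of 397 and 387 in BB, 513, 396 and 439 in DB, and 318, 358.5 and 366 in HE. Its log2 fold change for DB with HE was 0.36 (SE 0.12, adjusted p = 0.226). The plexins Plxnb3 and Plxnb1, receptors of semaphorins that associate with Met, were at -0.18 and -0.16 for DB with HE, and the semaphorin Sema4d was at 0.076.

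Of the 27 measured adaptors and signalling genes, Src, a tyrosine kinase downstream of both receptors, had values of 207 and 196 in BB, 221, 299 and 270 in DB, and 172, 244 and 158 in HE. Its log2 fold change for DB with HE was 0.48 (SE 0.15, adjusted p = 0.192). Without HE replicate 3, which held the highest HE value of Src, it was 0.66 and passed the limma test, as did 1.30% of all genes. In BB replicate 8 Src was at 48189 (268 RPM, against 66.6 to 115 in the 8 others). Akt1, a kinase downstream of PI3K, was at 0.34 for DB with HE (adjusted p = 0.425 in limma) and -0.35 for BB with DB. Sos1, which loads Ras with GTP, was at -0.28 for DB with HE.

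Of the 13 negative regulators, Ptpn2, a phosphatase that acts on Met, was at -0.38 for BB with HE (SE 0.16, adjusted p = 0.671), with values of 45.9 and 48.3 in BB and 57.1, 65.95 and 61.7 in HE. Spry4, an inhibitor of Ras signalling, was at 0.24 for DB with HE, the phosphatase Ptprj at 0.13 and the ubiquitin ligase Cblb at 0.13. Of the 9 transcription factors, Ets1 was at 0.30 for BB with DB (SE 0.13, adjusted p = 0.991), Hnf4a at -0.058, Sp1 at -0.0041 and Cebpb at 0.32.

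Markers of the cells that make or receive these signals were measured beside them. The hepatocyte markers, of which 7 of 8 were measured, summed to 895 to 941 in BB, 651 to 684 in DB and 864 to 1223 in HE, with none at 0. Without Alb, albumin, the other 6 summed to 440 to 457 in BB, 388 to 430 in DB and 377 to 484 in HE, so that DB and HE overlapped. They did not all have the same sign for DB with HE, with Cyp2e1, a cytochrome P450, at 0.46 and Ttr, transthyretin, at -0.63, neither past the test. Alb was the 1 marker called. It had values of 263, 251 and 282 in DB and 486, 738 and 541 in HE, and its log2 fold change was -1.12 (SE 0.14, adjusted p = 0.000145 in limma). Macrophage markers summed to 1464 to 1476 in BB, 1480 to 1818 in DB and 1747 to 1890 in HE, and stromal markers to 1151 to 1221, 1244 to 1331 and 1223 to 1414 in these groups. Cd68 was the largest macrophage marker, at 647 and 636 in BB and 781, 913 and 884 in HE. Csf1r in BB (188 and 155) lay on either side of HE (179 to 181). For BB with HE, 1 of the 7 macrophage markers had a log2 fold change above 0. None of the 7 was called, against 0.192% of all genes. The part of these cell types in the values of the members was not tested, and in bulk RNA fewer cells of a type and less RNA per cell cannot be told apart.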

How the data were processed

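RNA-seq values of 9 libraries were analysed. The unit of the deposited values is a signal that the authors had scaled, dividing the reads of a gene by the size factor of its library. Undoing this gave whole reads, to within 0.1 reads, for 100% of the values. GRCm38 and mm10, which are mouse builds, appear in the processing notes of the submitters. For aligner, counter and strand the entry is: not given in the sources used here. RefSeq names rest on GRCr8, so no coordinates are given. LOC134480232 overlaps Mst1r and LOC103692033 overlaps Hgf there, and reads of these cannot be told apart if strand was not used. No gene had the same reads as a member (0 each).

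The main test was limma 3.58.1 (R 4.3.3) with a trend on log2(value + 1), 8 libraries and 3 groups in 1 fit without covariates, 5 residual degrees of freedom, over genes whose mean reached 1 in any group, adjusted by Benjamini-Hochberg at 0.05. Fold changes are on that scale and understate low genes. The design had named edgeR for raw counts and limma otherwise. edgeR 4.0.16 and DESeq2 1.42.0 on the recovered reads, other pseudocounts, filters and scalings, and leaving out each library were alternatives, and 3 fits of all 9 libraries were added after seeing the data. Scripts were tested on simulated data. Members, lists and tests were chosen with earlier results of these data known. The genes named are the members, 4 genes of each of 7 pathway lists by smallest p (1 where a list holds 1, and some not reported here), and the 5 genes most correlated with each member.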

Additional observations from a re-analysis of the deposited data

Results flagged for a closer look

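BB replicate 8 was used in no comparison of the report's main test, and 2 of the 4 genes were above every DB and HE library there. The share of all genes above every DB and HE library was not computed, so this count is not shown to be unusual. By a looser measure, 33.6% of the genes whose mean reached 100 were above their own mean in BB replicate 8 on the deposited scale. Mst1r had a value of 33482 in BB replicate 8, against at most 2170.3 in DB and 2267 in HE. Mst1 had a value of 73.2, against at most 46.3 in DB and 28.9 in HE, but it rests on 5 reads, whose counting interval is 23.8 to 171. In RPM both were lower in BB replicate 8 than in every other library. On that scale 5.00% of the genes whose mean reached 100 were above their mean there. Dixon's test was not applied, since no group holds 4 libraries.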

How the results depend on the processing

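No paired analysis was possible because the groups compared share only 1 replicate number each. Over 12 member fold changes and 23 alternatives each, 246 of 276 values kept their direction, 30 turned and none passed the test (lowest adjusted p 0.476). Many of the 276 could not turn. Leaving out or adding a library of the group not compared, or changing the filter, left the fold change as it was. The 246 therefore overstate how stable the directions are. The direction, but not the size, held under every alternative for Mst1r and Mst1 in DB with HE, including those that could not change it. The counts of genes called were 0 for DB with HE and 0 for BB with HE with all 9 libraries, 1 and 0 without the filter, 333 for DB with HE with total-count scaling, and, for BB with DB, 5 with the compared libraries only, 1 with TMM, 1 with upper-quartile, 2 with total-count, 1 with edgeR and 2 with DESeq2. With 9 libraries, total-count scaling gave 0 and 0, edgeR 0 and 0 and DESeq2 24 and 15 for DB with HE and BB with HE. Signs turned as follows. With 9 libraries Mst1 was at 0.35 and Hgf at -0.68 for BB with DB, and Mst1r at 1.29 for BB with HE. With total-count scaling Mst1 was at 0.065 for BB with DB and Hgf at 0.024 for BB with HE, and Mst1r for BB with HE was at 0.000405 in edgeR and 0.000938 in DESeq2. With 9 libraries, total-count scaling gave Mst1r -0.42 and Hgf -2.07 for BB with DB and Mst1 -0.9998 for BB with HE, edgeR gave Mst1 0.0061, Hgf -0.24 and, for BB with HE, Mst1r 2.49, and DESeq2 gave 0.077, -0.16 and 2.57. The 9-library ratios were 0.58 for Mst1r to Mst1 in BB with HE, and 0.39 and 0.38 for Met to Hgf in BB with DB and BB with HE. The causes were not tested.

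Leaving out 1 library at a time gave 59 to 420 genes called for DB with HE, 0 to 19 for BB with DB and 26 to 76 for BB with HE. Of the 82 pathway genes it gave 0 to 1 for DB with HE (Src, without HE replicate 3, where 1.30% of all genes were called). The fold changes then ran from -0.44 to -0.087 (Mst1r, DB with HE), 0.14 to 0.48 (Mst1, DB with HE), 0.28 to 0.42 (Mst1, BB with HE), -0.14 to 0.59 (Mst1r, BB with DB), -0.42 to 0.31 (Mst1r, BB with HE), -0.12 to 0.093, -0.27 to 0.069 and -0.29 to 0.051 (Met, DB with HE, BB with DB, BB with HE), -0.14 to 0.20 (Mst1, BB with DB), and -0.050 to 0.047, -0.049 to 0.058 and -0.061 to 0.052 (Hgf, in the same order as Met). The ratios ran from -0.92 to -0.45, -0.14 to 0.63 and -0.78 to -0.0045 (Mst1r to Mst1, DB with HE, BB with DB, BB with HE), -0.092 to 0.059, -0.33 to 0.12 and -0.34 to 0.11 (Met to Hgf), and -0.44 to -0.10, -0.21 to 0.86 and -0.47 to 0.60 (Mst1r to Met). Met and Mst1 had the fewest reads, 28 to 123 per library.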
